A study of Rattus norvegicus with 88 samples.

Results

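Serotonin acts on cortical neurons through a family of receptors, and 3 of their genes were examined in orbitofrontal cortex from heterogeneous stock (HS) rats: Htr1a (ENSRNOG00000010254), Htr2a (ENSRNOG00000010063) and Htr2c (ENSRNOG00000030877). The genes were taken by their Ensembl identifiers and not by a cut on their measured values. Earlier results of these data were known when they were chosen. All 3 had a row among the 17123 genes of the table, and the table pairs no other identifier with a name. HS rats are an outbred stock bred from inbred founder strains, so each animal carries its own mosaic of founder haplotypes. The labels described 88 rats that were group housed and naive to behavioral or drug treatment, of which 8 were marked as removed and were not analysed here. The 80 rats with a column were 41 males and 39 females, and polyA RNA was sequenced from tissue dissected bilaterally from each. The labels assign each rat to a numbered batch without saying what a batch was: 15 rats to batch 2 (11 males and 4 females), 22 to batch 3 (10 and 12), 26 to batch 4 (12 and 14), 16 to batch 6 (8 and 8) and 1 female to batch 5. No treatment, strain or genotype group was labelled, so the comparisons available are between batches, between sexes and among rats.

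The protein products differ in how they signal. The Htr1a receptor couples to the inhibitory Gi/o proteins, lowers cyclic AMP and opens potassium channels, and it sits both on the serotonin neurons of the raphe nuclei as an autoreceptor and on their target cells. Htr2a and Htr2c encode closely related receptors that couple to Gq and phospholipase C. Htr2a is abundant on the dendrites of cortical pyramidal neurons and is the main target of the classical psychedelics. Htr2c, an X-linked gene whose transcript is edited by adenosine deamination and alternatively spliced, is also strongly expressed in the choroid plexus and takes part in the control of feeding and mood. The gene-level values used here do not separate edited or spliced forms. In tissue RNA, a lower value can mean fewer cells that express a gene or less RNA per cell, and these cannot be told apart.

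The values are log2 of a normalized read count plus 1. Every library was deep enough to detect each receptor gene. Recovered from the values, the depth ran from 5.67 M to 25.6 M reads with a median of 18.2 M, and the batch medians were 16.3, 16.8, 18.9 and 19.3 M reads for batches 2, 3, 4 and 6. In the order of the table, the library identifiers ascend in 3 separate runs of 21, 13 and 46 columns, called stretches here. The sources used here do not say what a stretch is. Batch 2 lies almost wholly in the first stretch (14 of 15 rats), batch 3 is divided over all 3 (7, 12 and 3 rats) and batches 4, 5 and 6 lie in the third. Batch and stretch therefore overlap, and batch results are given inside the first stretch (batches 2 and 3) and the third (batches 3, 4 and 6) as well.

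Htr1a had the lowest counts. Its normalized count ran from 31 to 112 among the 80 rats with a median of 63, behind which stood 27 to 129 reads per library. Htr2a was counted far more often, from 697 to 1674 with a median of 1166. Htr2c lay between them, from 283 to 1120 with a median of 464. These counts are not divided by transcript length, so the order of the genes is an order of reads and not of transcripts. The ratio of the highest to the lowest rat was 3.61 for Htr1a, 2.40 for Htr2a and 3.96 for Htr2c.

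The rats at the ends of the 3 ranges were different animals. Htr1a was highest in a batch 2 female (replicate 6, normalized count 112) and lowest in a batch 3 female (replicate 10, 31). For Htr2a the extremes were a batch 3 male (replicate 20, 1674) and a batch 2 male (replicate 16, 697). Htr2c was highest in a batch 2 male (replicate 8, 1120) and lowest in a batch 6 female (replicate 5, 283). The male with the lowest Htr2a count had 84 for Htr1a and 596 for Htr2c, both between the quartiles of batch 2.

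**Figure D1:**
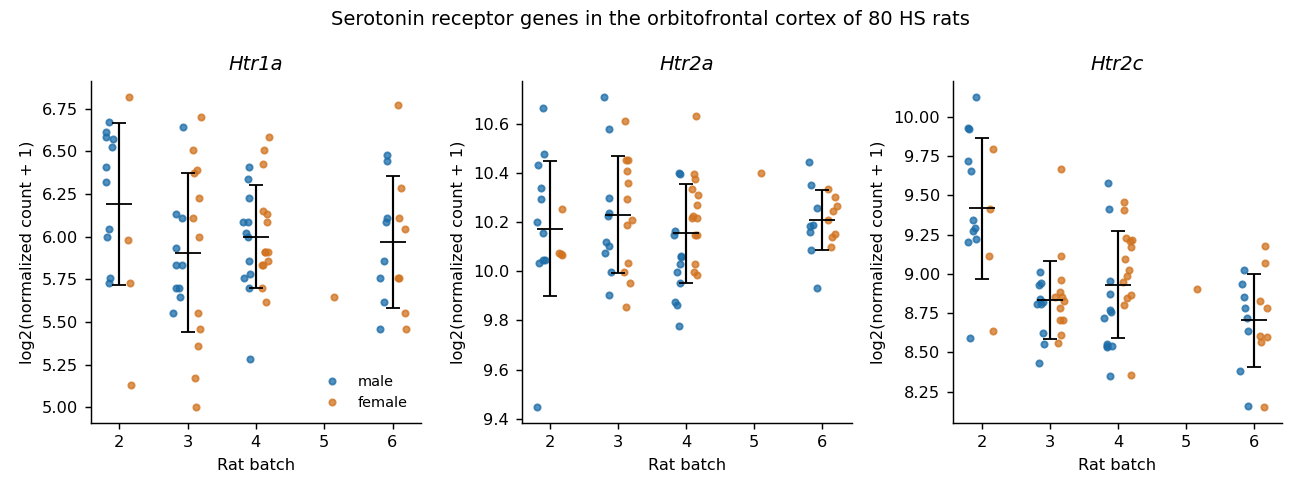
The log2(normalized count + 1) of Htr1a, Htr2a and Htr2c in each of 80 rats is plotted by rat batch, with males in blue, females in orange and the batch mean with its SD in black (no mean for the single rat of batch 5). Batch 2 stands highest for Htr2c, with a mean of 9.42 against 8.70 to 8.93 in batches 3, 4 and 6, while the Htr2a means lie between 10.15 and 10.23.

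The largest pattern by batch was in Htr2c. In batch 2 its normalized count ran from 385 through a median of 649 to 1120. Batch 3 had 345, 452 and 812, batch 4 had 325, 481 and 764, and batch 6 had 283, 430 and 579. The single rat of batch 5 had 477. Batch 2 was thus high as a group, although every batch overlapped with every other. It held 7 of the 10 highest Htr2c values and 12 of the 20 highest. Of its 15 rats, 12 lay above the highest rat of batch 6, 6 above the highest of batch 4 and 5 above the highest of batch 3.

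Across batches 2, 3, 4 and 6, 1 of the 3 receptor genes differed by the moderated F test of limma with sex in the model. Htr2c passed it with an adjusted p of 4.33e-07. Batch moved much of the table, with 64.7% of all genes called by the same test, and Htr2c ranked 3684 of 17123 by p. Its range between the highest and lowest batch means, 0.73 on the log2 scale, was wider than in 89.2% of the genes with a mean log2 value of at least 3, for which the median range was 0.28. Without batch 2 the Htr2c range was 0.22 with an adjusted p of 0.0940.

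By pairs of batches, Htr2c was called in the 3 comparisons with batch 2. Relative to batch 2 it was lower in batch 3 by a log2 difference of -0.61 (SE 0.11, 1.53-fold, limma adjusted p = 9.73e-05), in a comparison that called 9.79% of all genes. The difference of batch 4 from batch 2 was -0.51 (SE 0.11, 1.42-fold, limma adjusted p = 4.36e-05), where 48.6% of genes were called. Batch 6 was lower than batch 2 by the widest margin, -0.73 (SE 0.12, 1.66-fold, limma adjusted p = 1.71e-07), where 53.8% of genes were called.

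The other 3 batches formed an order for Htr2c that the data did not resolve. Their fitted means descended from batch 4 (8.97) to batch 3 (8.87) and batch 6 (8.75), below 9.48 in batch 2. Batch 4 minus batch 3 was 0.10 with a 95% interval of -0.09 to 0.29, while 42.9% of genes were called between these batches. The interval for batch 6 minus batch 3 was -0.34 to 0.09 around -0.12, with 50.9% of genes called. Batch 6 minus batch 4 was -0.22, from -0.43 to -0.02, and missed the threshold after adjustment over all genes (limma, p = 0.0334, adjusted p = 0.138), where 13.6% of genes were called.

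The excess of Htr2c in batch 2 was also measured inside the first stretch, which holds 14 rats of batch 2 and 7 of batch 3. There the normalized count ran from 385 to 1120 (median 666) in batch 2 and from 345 to 498 (median 461) in batch 3. The 1 batch 2 rat outside it lay in the second stretch and had 397, close to the lowest of that stretch (394 to 812). With 1 rat there, batch 2 could not be compared in a second stretch. The differences that follow are again inside the first. Inside the first stretch the log2 difference of batch 3 from batch 2 was -0.71 (SE 0.18) with a limma adjusted p of 0.0408, in a comparison that called 1.94% of all genes. Inside batch 3, the mean log2 value of Htr2c was 8.80, 8.96 and 8.73 in its 3 stretches, and this range of 0.23 was not called by limma (adjusted p = 0.364). Inside the third stretch, which holds no batch 2 rat, the Htr2c range between batches was 0.24 (limma adjusted p = 0.181). With a term for 20 principal components of the whole expression matrix added, the range between batches was 0.43 and no longer passed (limma, p = 0.00399, adjusted p = 0.273). The components were drawn from all genes, of which 64.7% were called across batches, so they can overlap with the batch term. Of these components, the first and the fifth accounted for 16.4% and 19.7% of the variance of Htr2c.

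Neither Htr1a nor Htr2a was called in any of the 6 pairs. Htr1a, the Gi/o-coupled receptor, had a median normalized count of 79 in batch 2 against 58, 61 and 61 in batches 3, 4 and 6. Batch 2 supplied 6 of its 10 highest values. The range of its batch means was 0.28, equal to the median of the genes with a mean of at least 3 (limma adjusted p = 0.303). Its widest pair was batch 3 minus batch 2, a log2 difference of -0.28 with a 95% interval of -0.55 to -0.00 (limma, p = 0.0476, adjusted p = 0.204).

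The Htr2a batch means lay close together over all rats, but not under each setting. Its medians were 1140, 1190, 1134 and 1175 in batches 2, 3, 4 and 6, and the batch means spanned 0.08 on the log2 scale (limma adjusted p = 0.684). Among genes whose mean was at least 3, only 4.12% had a narrower range. All 6 pairwise intervals for Htr2a lay between -0.20 and 0.19, which leaves room for differences of that size. With a term for stretch the Htr2a range was 0.29 (limma adjusted p = 0.195), with 20 principal components 0.29 (adjusted p = 0.669), inside the first stretch 0.18 (adjusted p = 0.481) and inside the third 0.30 (p = 0.0202, adjusted p = 0.0968). Batch 3 had 3 rats in the third stretch, with a fitted mean log2 Htr2a of 10.44, against 10.31 and 10.14 in its first and second stretches. Htr1a spanned 0.32 inside the first stretch and 0.34 inside the third (limma adjusted p = 0.435 and 0.464), and 0.49 with 20 components (adjusted p = 0.509), so inside the third stretch the range of Htr2a was no narrower than that of Htr2c.

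**Figure D2:**
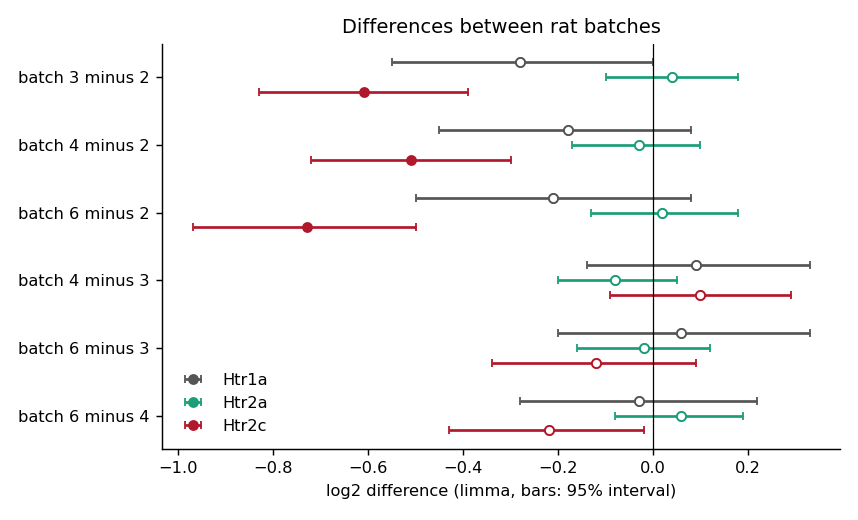
The log2 difference of each pair of rat batches from limma is plotted for each receptor gene, with bars for the 95% interval, filled points for an adjusted p under 0.05 and open points otherwise. The filled points are Htr2c in batches 3, 4 and 6 against batch 2, at -0.61, -0.51 and -0.73, and the other 15 points are open.

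Since a log ratio of 2 genes within a library does not depend on how that library was scaled, the receptor genes were also compared with each other in each rat. The Htr2a minus Htr2c difference of log2 values averaged 0.76 ± 0.47 (SD) in the rats of batch 2, against 1.40 ± 0.32 for batch 3, 1.22 ± 0.32 for batch 4 and 1.50 ± 0.31 for batch 6. Batch accounted for 36.3% of its variance over 79 rats (permutation of batch within sex, adjusted p = 3.00e-05, raw p at its smallest possible value). The mean log ratio of the related pair Htr2a and Htr2c was thus lowest in batch 2, but the test was of the 4 batches together. Batch 2 was not tested against the others for this ratio, and no share was computed for other pairs of genes. Taken singly, Htr2c had 35.3% of its variance with batch and Htr2a 3.38%, so the ratio is not separate from the Htr2c difference. Without batch 2, 12.3% of the variance went with batch (permutation test, adjusted p = 0.0562), inside the third stretch 25.3% (adjusted p = 0.00690) and inside the first 52.8% (adjusted p = 6.90e-04). In the third stretch batch 3 had 3 rats, with Htr2a counts of 1312, 1197 and 1674 and Htr2c counts of 390, 374 and 447. How far the share there rests on these 3 rats was not tested.

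Htr1a minus Htr2c averaged -3.23 ± 0.25 (SD) in the rats of batch 2, against -2.93 ± 0.45 for batch 3, -2.93 ± 0.24 for batch 4 and -2.73 ± 0.48 for batch 6. Batch accounted for 15.9% of this variance (permutation test, adjusted p = 0.00678), but for 4.72% without batch 2 (adjusted p = 0.303) and 7.80% inside the third stretch (adjusted p = 0.178), neither of which includes a batch 2 rat. Inside the first stretch, where batch 2 meets batch 3, the share was 26.8% (permutation test, adjusted p = 0.0235). For Htr1a minus Htr2a the share was 8.25% and missed the threshold (permutation test, adjusted p = 0.0899), whereas inside the third stretch it was 19.2% (adjusted p = 0.0157) and inside the first 21.2% (adjusted p = 0.0235). The third stretch holds only 3 rats of batch 3.

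**Figure D3:**
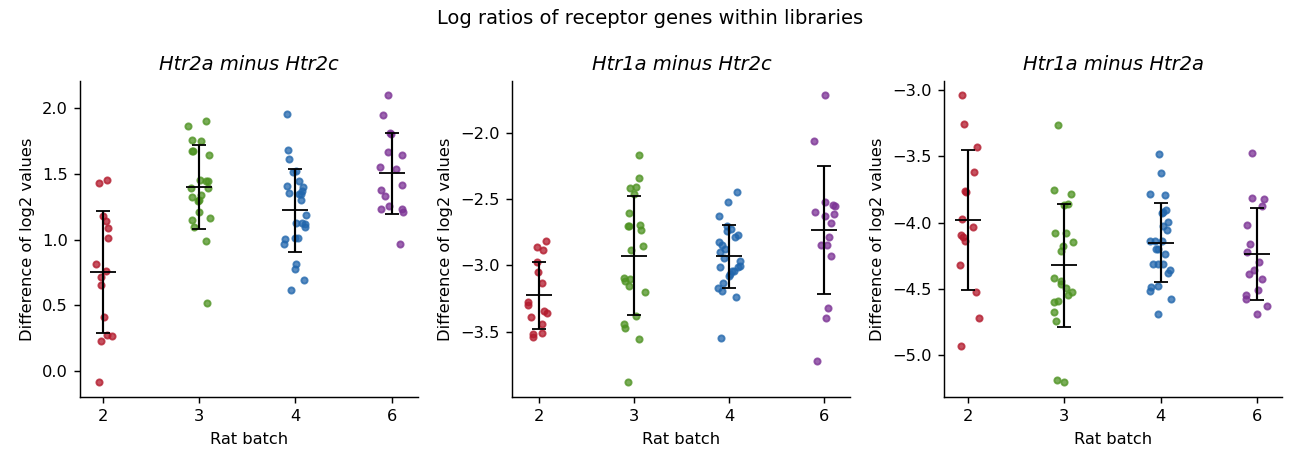
The difference of log2 values between receptor genes within each library is plotted by rat batch for 79 rats, with the batch mean and SD in black. Htr2a minus Htr2c is lowest in batch 2, at a mean of 0.76 against 1.22 to 1.50 in the other batches, and the batches overlap in every panel.

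Sex gave no difference in any receptor gene that passed the test. Htr1a had a median normalized count of 64.0 in males and 59.0 in females, Htr2a 1140 and 1190, and Htr2c 458 and 471. With batch in the model, male minus female was 0.04 for Htr1a (95% interval -0.15 to 0.22, limma adjusted p = 0.971), -0.05 for Htr2a (-0.15 to 0.04, adjusted p = 0.887) and -0.08 for the X-linked Htr2c (-0.23 to 0.07, adjusted p = 0.887). The same test called 20 genes, 0.117% of the table. With 20 principal components added, the Htr2c difference was 0.70, of the opposite sign, and was not called over all genes (limma, p = 0.0142, adjusted p = 0.535). It lay outside that interval, which belongs to the fit without components. The components were drawn from all genes, those that differ by sex included, so they can overlap with the sex term. The error of the 0.70 is not given here.

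The direction for Htr2c was not the same in each batch. Male minus female means were 0.24, -0.10, -0.25 and -0.04 in batches 2, 3, 4 and 6. In batch 2 this rests on 4 females, whose Htr2c counts were 397, 553, 682 and 889. The same females had 34, 52, 62 and 112 for Htr1a, so in each gene they stretched over most of the batch. The interaction of sex with batch was not called for any receptor gene (limma adjusted p = 1.00 for each), nor for any of the 17123 genes (0%), of which 451 had an unadjusted p under 0.05.

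Among rats of the same sex and batch, Htr1a and Htr2c varied more than a typical gene. After sex and batch were fitted, the residual SD was 0.40 for Htr1a, 0.33 for Htr2c and 0.21 for Htr2a on the log2 scale, against a median of 0.20 over the 14803 genes with a mean of at least 3. A smaller residual SD was found in 80.9%, 74.4% and 53.7% of these genes, in the same order. Counting error alone, at the reads recovered, would give an SD of 0.19 for Htr1a, or 23.1% of its residual variance, and 4.34% and 4.38% for Htr2c and Htr2a. The low counts of Htr1a therefore make its value in a single rat less precise than that of either other gene.

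The share of variance that went with batch separated the genes in another way. It was 35.3% for Htr2c, 6.81% for Htr1a and 3.38% for Htr2a, where the median gene had 22.1%. Sex took 0.0188%, 1.07% and 2.00%. The first 20 principal components of expression took 67.8%, 58.9% and 50.8%, against a median of 67.6%. The residuals showed no called relation with depth. The correlation with log2 depth was -0.22 for Htr1a, 0.06 for Htr2a and -0.16 for Htr2c over 80 rats (permutation within batch, adjusted p = 0.228, 0.612 and 0.336), with rho of -0.23, 0.06 and -0.07. Without the 2 rats farthest from the median depth, r was -0.18, 0.06 and -0.04.

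Htr1a and Htr2c rose and fell together from rat to rat. Of the 20 rats with the highest Htr1a residual, 13 were also among the 20 highest for Htr2c, 9 rats were among the 20 lowest for both, and 3 were at opposite ends. The correlation of the residuals over 80 rats was r = 0.53 (rho = 0.52, permutation within batch, adjusted p over 3 pairs = 3.00e-05, the smallest that the permutations allow). It was 0.50 without the 2 rats farthest from the median in Htr1a and 0.49 without the 2 farthest in Htr2c. In the raw values r was also 0.53, and it was 0.51 in males and 0.56 in females. With the 20 components removed in place of sex and batch it was 0.35 (permutation test, adjusted p = 0.00270).

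Htr2a, the closer relative of Htr2c, had smaller correlations with both other genes in these residuals, and whether the correlations of the 3 pairs differ was not tested. With Htr1a its residual r was 0.25 (rho = 0.31, permutation test, adjusted p = 0.0508 for r and 0.00898 for rho). With Htr2c it was 0.24 (rho = 0.25, permutation test, adjusted p = 0.0508 and 0.0296). In both pairs the rank correlation passed the threshold and the linear one did not. Raw values gave 0.20 and 0.15 (permutation test, adjusted p = 0.115 and 0.173). Without the 2 rats farthest in the first gene of each pair, r was 0.24 and 0.24. With the 20 components removed in place of sex and batch, the order of the pairs changed. There r was 0.40 for Htr1a with Htr2a and 0.30 for Htr2a with Htr2c (permutation test, adjusted p = 9.60e-04 and 0.00451), beside 0.35 for Htr1a with Htr2c. For the correlations, sex, batch and the components were not removed together.

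**Figure D4:**
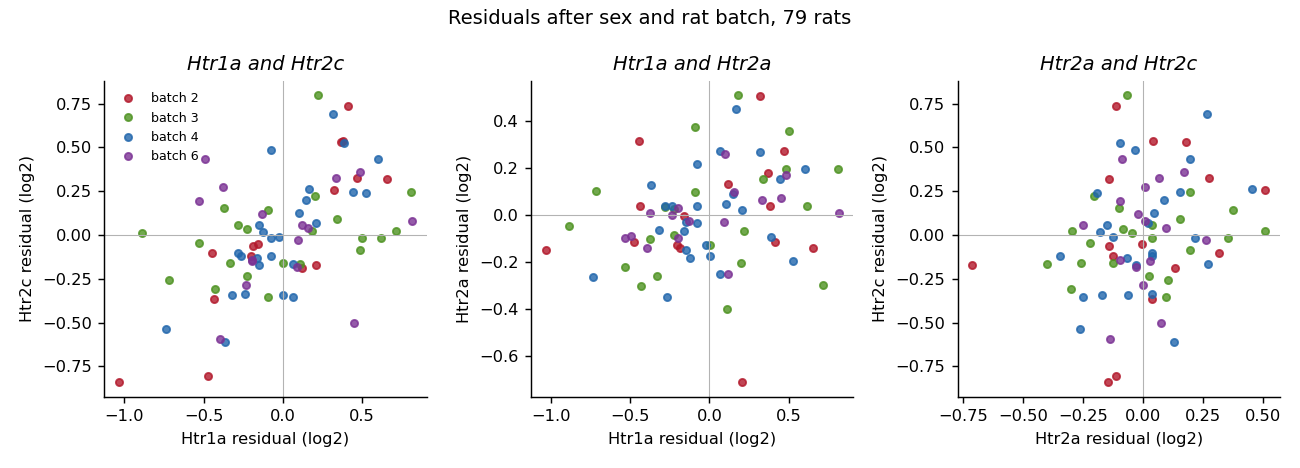
Log2 residuals after sex and rat batch are plotted against each other for the 3 pairs of receptor genes, 1 point per rat (79 rats, batch 5 not drawn), coloured by batch. The points rise together for Htr1a and Htr2c (r = 0.53), with the red points of batch 2 along the diagonal and the purple points of batch 6 without a slope, and are more scattered for the other pairs (r = 0.25 and 0.24).

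The tie between Htr1a and Htr2c was not of the same strength in each batch. Within batch 2 the residual r was 0.86 (rho = 0.84, 15 rats) and within batch 4 it was 0.75 (rho = 0.73, 26 rats), and both passed the permutation test with an adjusted p of 1.80e-04 over the 12 correlations computed within batches. Batch 3 had 0.32 (rho = 0.37, 22 rats, permutation test, adjusted p = 0.287) and batch 6 had 0.02 (rho = 0.04, 16 rats, permutation test, adjusted p = 0.931). Single rats show the contrast. In batch 2, replicate 3 was low in both genes (34 for Htr1a and 397 for Htr2c) and replicate 6 was high in both (112 and 889). In batch 6, replicate 16 had 86 for Htr1a with 285 for Htr2c, while replicate 12 had 43 with 579, the highest Htr2c of that batch.

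A test of the difference itself, chosen after these values were seen, permuted batch among rats of the same sex, with residuals scaled to the same SD in every batch. The 4 correlations of Htr1a with Htr2c differed by more than this reshuffling gave (permutation test, p = 0.00530, adjusted p = 0.0159 over 3 pairs). When each of the 79 rats was left out in turn, p from 9999 permutations stayed between 0.00210 and 0.0143. The within-batch r without any 1 rat was 0.81 to 0.89 for batch 2, 0.26 to 0.36 for batch 3, 0.72 to 0.81 for batch 4 and -0.15 to 0.19 for batch 6. Without the 2 rats farthest in Htr1a, the 4 values were 0.77, 0.30, 0.69 and 0.06.

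For the other pairs the batches did not separate by this test. The Htr1a and Htr2a correlation lay between 0.11 (batch 2) and 0.44 (batch 6), and that of Htr2a and Htr2c between 0.12 (batches 3 and 6) and 0.35 (batch 4). The permutation test of the difference gave an adjusted p of 0.761 for each. None of these 8 correlations passed by itself, the lowest adjusted p by permutation being 0.213. By stretch, the Htr1a and Htr2c correlation was 0.67 in the first stretch and 0.47 in the third (permutation test, adjusted p = 0.00129 and 0.00282). In the 13 rats of the second it was 0.50 and did not pass (permutation test, adjusted p = 0.475). These were 12 rats of batch 3 and 1 of batch 2, replicate 3, which was low in both genes (34 and 397). Permuting within batch left that rat in place, and r without it was not computed. The Htr1a and Htr2c correlation thus passed in the first and the third stretch and did not sit in 1 stretch alone.

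**Figure D5:**
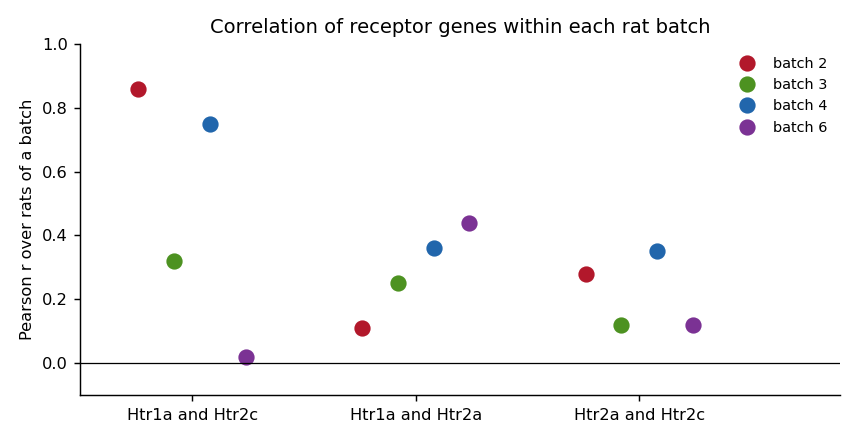
Pearson r of the residuals within each rat batch is plotted for the 3 pairs of receptor genes, 1 point per batch. The Htr1a and Htr2c points spread from 0.02 in batch 6 to 0.86 in batch 2, while the points of the other pairs lie between 0.11 and 0.44.

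Set among all genes, the agreement of Htr1a and Htr2c was high but not the highest. Of the 14802 other genes with a mean of at least 3, Htr2c ranked 24 by its residual correlation with Htr1a, so that 0.155% of genes were more alike to Htr1a than Htr2c was. From the side of Htr2c, Htr1a ranked 82. Htr2a ranked 1374 for Htr1a and 1276 for Htr2c. The 100 genes most alike to Htr1a and the 100 most alike to Htr2c had 48 in common, which is 48% of each list. Genes that correlate over the same libraries tend to share such lists, so the 48 is not separate from the correlation of the pair. The lists of Htr2a shared 0 genes with either. Lists of 100 drawn at random from 14802 genes would often share 0, so this count does not set Htr2a apart. These numbers are descriptions over genes measured in the same 80 libraries, and genes are not independent of each other.

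The genes closest in pattern are known here by identifier only. For Htr1a these were ENSRNOG00000012663 (r = 0.65, and 0.50 to 0.78 within the 4 batches) and ENSRNOG00000031700 (0.61, 0.40 to 0.77), and the most opposed were ENSRNOG00000021824 (-0.60, -0.78 to -0.47) and ENSRNOG00000000529 (-0.59, -0.77 to -0.31). Htr2a went most with ENSRNOG00000005278 (0.65, 0.43 to 0.77) and ENSRNOG00000010124 (0.64, 0.26 to 0.78) and most against ENSRNOG00000047867 (-0.58, -0.73 to -0.36) and ENSRNOG00000055564 (-0.58, -0.85 to -0.19). For Htr2c the closest gene reached 0.74 (ENSRNOG00000011989, 0.58 to 0.80), followed by ENSRNOG00000027520 (0.68, 0.56 to 0.76), with ENSRNOG00000006060 (-0.65, -0.83 to -0.53) and ENSRNOG00000008919 (-0.59, -0.72 to -0.08) at the other end. These 12 genes were picked as the most extreme over the same rats, so their values within batches are a description and no measure to hold the receptor pairs against.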

How the data were processed

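The authors deposited log2 values per gene for orbitofrontal cortex RNA-Seq. According to the methods and the submitters' processing notes, single-end reads were trimmed with cutadapt, quantified with RSEM against the Ensembl rat transcriptome (Rnor_6.0), scaled by an upper quartile adjustment with DESeq2 and given a pseudocount of 1. Tool versions and strand use in counting are not given in the sources used here. Raised back to the linear scale, the values were whole numbers (largest relative departure 3.47e-06), and the step between them gave each library's reads: 99.9 to 100% of values were whole multiples of a step of 0.733 to 3.51, within rounding of the normalized count to a whole number.

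All 80 columns matched a sample title, and 0 columns were left without a sample. Replicate numbers follow accession order. Batch, sex and their interaction were fitted to all 17123 genes with limma 3.58.1 in R 4.3.3 (mean trend, Benjamini-Hochberg adjustment, threshold 0.05), leaving the single rat of batch 5 out of batch comparisons. Correlations and log ratios were tested with 100000 two-sided permutations (the variance shares and the test between batches one-sided, the latter with 9999 permutations when single rats were left out) in Python 3.11.15 with numpy 2.4.6. Residuals are log2 values after sex and batch. The tests set differences against the spread between rats. No batch was repeated, so the batch tests hold no spread between like batches. The depth recovery, the limma fits and the permutation code for correlations and variance shares were tested on simulated data. The test of correlations between batches was not.

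The genes named are the receptor genes and, for each, the 2 genes of highest and 2 of lowest residual correlation. The members and these choices were made with earlier results of these data known. Lists of other serotonin genes and of cell type markers, orbitofrontal cortex included, were not run, because the reference table paired 0 of the identifiers with a symbol, and the labelled tissue was not checked against its markers for the same reason. Alternatives covered the pseudocount, a filter on low values (mean of at least 3), quantile normalization, voom weights on the recovered reads, terms for depth, stretch and 20 principal components, and leaving out each batch. In the correlations the components replaced sex and batch, while in the limma fits and the spread they were added to them.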

Additional observations from a re-analysis of the deposited data

Results flagged for a closer look

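The correlation of Htr1a with Htr2c differed between rat batches, from 0.86 in batch 2 and 0.75 in batch 4 to 0.32 in batch 3 and 0.02 in batch 6 (permutation of batch within sex, p = 0.00530, adjusted p = 0.0159). The test was chosen after the 4 correlations were seen. Htr2c counts ran from 283 to 579 in batch 6 with an SD of 0.30 on the log2 scale, and the SD was 0.45, 0.25 and 0.34 in batches 2, 3 and 4. The median depth of batch 6, 19.3 M reads, was the highest of the 4 batches. Whether these values have a part in the difference was not tested.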

How the results depend on the processing

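No paired analysis was run because each rat had a single library here, and replicate numbers do not pair rats between batches. The Htr2c difference across batches (range 0.73) passed in 11 of 14 alternatives, with ranges from 0.56 to 0.74. It missed the threshold without batch 2 (0.22, limma adjusted p = 0.0940), inside the third stretch (0.24, adjusted p = 0.181) and with 20 principal components (0.43, adjusted p = 0.273). Htr1a and Htr2a stayed uncalled in all 14. Their ranges moved most for Htr2a, from 0.08 to 0.30 inside the third stretch. The sex differences, none of them called, changed sign with the setting: Htr1a to -0.02 without batch 2 and to -0.02 inside the second stretch, Htr2a to 0.21 with 20 components, to 0.01 without batch 4 and to 0.11 inside the first stretch, and Htr2c to 0.70 with 20 components, to 0.00 without batch 4 and to 0.01 with no batch term. The interaction and the relation to depth stayed uncalled in every alternative run. The residual SD, which was not tested, was lowest with 20 components also removed. It then was 0.28 for Htr1a, 0.17 for Htr2a and 0.24 for Htr2c, from 0.40, 0.21 and 0.33.

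The Htr1a and Htr2c correlation stayed positive in all 20 alternatives and passed in 17, the exceptions being batch 3 (0.32), batch 6 (0.02) and the second stretch (0.50, 13 rats). Htr1a with Htr2a, at 0.25, passed as a rank correlation (0.31), with a depth term (0.27), with a stretch term (0.27), with 20 components in place of sex and batch (0.40), in females (0.37) and without batch 2 (0.31). Htr2a with Htr2c, at 0.24, passed as a rank correlation (0.25), with a depth term (0.25), with a stretch term (0.27) and with 20 components in place of sex and batch (0.30). Of the log ratios, the share with batch of Htr1a to Htr2a passed inside the third stretch (19.2%) and inside the first (21.2%). That of Htr1a to Htr2c no longer passed inside the third stretch (7.80%) or without batch 2 (4.72%), nor did that of Htr2a to Htr2c without batch 2 (12.3%). Tests inside single stretches (apart from ratios in the third), correlations in each sex, and correlations and ratios without a batch were added after the data were seen. The cause of these changes was not tested. Depth limits Htr1a most, at 27 to 129 reads per library.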
